A study of Homo sapiens with 12 samples.

Results

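The MAP7 family consists of MAP7 (ensconsin), MAP7D1, MAP7D2 and MAP7D3, and its transcripts were followed in HEK293 cells (human, from embryonic kidney) with and without AMP-activated protein kinase (AMPK). The 4 genes were taken from the 26058 genes listed in the deposited table by matching their Ensembl identifiers to the family symbols. MAP7D2 was singled out because its transcript was low in the AMPK knockout line, so its differences between the lines are given below as a description and were not tested. The other members were tested in every comparison, and MAP7D2 in those of the treatments in the unmodified cells, where it was well measured.

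MAP7 proteins bind along the microtubule lattice through an N-terminal coiled-coil region and recruit kinesin-1, the motor that carries cargo towards microtubule plus ends, through a C-terminal one. MAP7, MAP7D1 and MAP7D3 are expressed in many dividing cell types. MAP7D2 is best known from the brain, where it is found in the proximal axon and assists the entry of kinesin-1 cargo.

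Wild-type cells (WT) were compared with a line in which the genes of both AMPK catalytic subunits, PRKAA1 and PRKAA2, had been disrupted by CRISPR (AMPK KO). All cells were kept in low serum for 24 h. Treatments were the solvent DMSO for 50 min (DMSO), DMSO for 50 min with epidermal growth factor for the last 30 min (DMSO+EGF), and 25 µM cordycepin, an adenosine analogue lacking the 3′ hydroxyl group, for 50 min with EGF for the last 30 min (cordycepin+EGF). Each of the 6 groups had 2 libraries, labelled replicates 2 and 3, because replicate 1 of every condition was discarded by the authors and was not analysed here. The unit of the EGF dose differs between the sources, so the dose is not given, and for DMSO alone a shorter time is also stated. Each genotype was a single line, so that the loss of AMPK and any other difference between the lines cannot be told apart, and whether AMPK KO derives from 1 clone is not given in the sources used here.

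Levels are in RPKM, that is reads scaled to gene length and library size, which allows genes of different length to be compared. The reads on listed genes numbered between 12691508 and 26475402 in 11 libraries and 4013039 in WT DMSO replicate 3, which is the least precise. The transcripts of the targeted genes remained detectable: PRKAA1 ranged from 11.2 to 21.9 RPKM in WT and from 7.03 to 8.51 in AMPK KO, and PRKAA2 from 6.78 to 12.1 and from 5.39 to 7.43. Of 8 genes known to be expressed in HEK293 cells, 5 reached 1 RPKM in both lines, and the summed level of the 8 was 105 to 159 RPKM in WT and 100.47 to 154 in AMPK KO. PAX2, LHX1 and NEFM did not exceed 0.851, 0.947 and 0.342 RPKM in any library. VIM, the highest of the 8, was at 49.1 to 82.3 RPKM in WT and 50.8 to 76.3 in AMPK KO. Of 8 markers of other cell types only 2 were listed, and their summed level did not exceed 1.24 RPKM in any library. The collagen gene COL1A1 of this list was at 0.626 to 1.21 RPKM in WT and 0.354 to 0.856 in AMPK KO and was called lower under DMSO+EGF (log2 difference -0.92, limma adjusted p = 0.0499).

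MAP7D2 (ENSG00000184368) lies on the minus strand of chromosome X (GRCh38, chrX:20006713-20116907) and has an annotated exon length of 4366 bases. MAP7D3 (ENSG00000129680) lies on the same chromosome and strand at chrX:136213220-136256482, with 6885 exonic bases. MAP7 (ENSG00000135525) is on the minus strand of chromosome 6 at chr6:136342281-136550819, and MAP7D1 (ENSG00000116871) is on the plus strand of chromosome 1 at chr1:36155579-36180849. All 4 genes are protein coding. The 5′ end of TRAPPC3, on the opposite strand, overlaps MAP7D1, and 3 listed genes overlap MAP7, of which the highest, RN7SKP299, did not exceed 3.86 RPKM. TRAPPC3 itself was at 9.91 to 13.4 RPKM. The libraries were stranded, but the strand setting of the read counting is not given in the sources used here, so that reads from such overlaps may be included in the values of MAP7 and MAP7D1.

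The 250 bases upstream of the annotated starts of the 2 members on chromosome X are shown because these genes share a chromosome and differ in their level in AMPK KO. Both are RefSeq sequences (GRCh38.p14, minus strand, 5′ to 3′), MAP7D2 at chrX:20116908-20117157 and MAP7D3 at chrX:136256483-136256732, and capitals mark each CG dinucleotide.
MAP7D2: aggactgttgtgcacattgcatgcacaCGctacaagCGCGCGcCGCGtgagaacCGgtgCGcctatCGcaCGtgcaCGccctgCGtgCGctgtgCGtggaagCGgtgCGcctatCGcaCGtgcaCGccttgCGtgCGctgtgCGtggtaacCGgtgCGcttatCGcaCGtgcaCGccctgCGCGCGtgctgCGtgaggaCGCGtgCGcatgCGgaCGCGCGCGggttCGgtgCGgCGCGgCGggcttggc
MAP7D3: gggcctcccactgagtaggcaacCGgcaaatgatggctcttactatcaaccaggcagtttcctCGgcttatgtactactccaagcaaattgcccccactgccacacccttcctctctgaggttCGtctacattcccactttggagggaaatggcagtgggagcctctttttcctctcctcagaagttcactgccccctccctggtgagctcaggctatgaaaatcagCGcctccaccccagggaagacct
The MAP7D2 stretch holds 44 CG dinucleotides and is 70% G or C, whereas that of MAP7D3 holds 4 and is 54.8% G or C. Among 35116 promoter stretches of the same length the median was 11 CG, with quartiles of 3 and 23, and 0.769% had as many as MAP7D2 against 70.7% for MAP7D3. The letters CACGTG, which read the same on both strands and contain a CG, occur 3 times upstream of MAP7D2 and 0 times upstream of MAP7D3. This motif was chosen after the sequence had been seen. At least 1 copy is present in 6.345% of the promoters and at least 3 copies in 0.0797%. The 3 copies upstream of MAP7D2 lie in near-identical stretches that follow each other in the printed sequence. They are therefore copies within a repeat and cannot be counted as 3 independent occurrences. The repeated stretches also hold many of the CG dinucleotides counted above. No conclusion is drawn from the shares of promoters for the motif or for CG, because repeats were not taken into account. Methylation and protein binding were not analysed here.

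MAP7D2, the member linked to axonal transport, was readily detected in WT and close to absent in AMPK KO. In WT its level was 7.36 and 5.97 RPKM (replicates 2 and 3) under DMSO, 7.23 and 7.84 under DMSO+EGF, and 5.29 and 5.20 under cordycepin+EGF. In AMPK KO the values were 0.0893 and 0.0556 under DMSO, 0.0166 and 0.0498 under DMSO+EGF, and 0.203 and 0.145 under cordycepin+EGF. Every AMPK KO library was therefore far below every WT library, the highest value in the former being 0.203 RPKM and the lowest in the latter 5.20. Such a separation of 6 libraries from 6 in this direction was seen for 1.06% of all genes tested, but as MAP7D2 was chosen for it nothing is read from this share.

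The values correspond to few reads in AMPK KO. Reads could be recovered from the steps of the RPKM values, and MAP7D2 had 6 and 4 reads under DMSO, 1 and 3 under DMSO+EGF, and 13 and 12 under cordycepin+EGF in AMPK KO, 39 in all. In WT it had 547 and 105, 800 and 563, and 666 and 364 reads, 3045 in all. Corrected for library size, the rate in WT was 67.5 times that in AMPK KO over all treatments, from reads summed over libraries. By treatment the ratio was 98.7 under DMSO, 225 under DMSO+EGF and 30.8 under cordycepin+EGF. These ratios describe the values on which MAP7D2 was selected and rest on few AMPK KO reads, so no interval is given. On the scale used for testing, log2(scaled RPKM + 0.5), where scaling is by the upper quartile of each library, the difference AMPK KO minus WT was -3.64 under DMSO, -3.89 under DMSO+EGF and -3.10 under cordycepin+EGF. These values understate the change, because the pseudocount of 0.5 exceeds all AMPK KO values, and MAP7D2 passed the filter of a mean of 0.5 RPKM only through its WT libraries. In a bulk population, fewer cells carrying the transcript and less transcript per cell cannot be told apart.

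**Figure D1:**
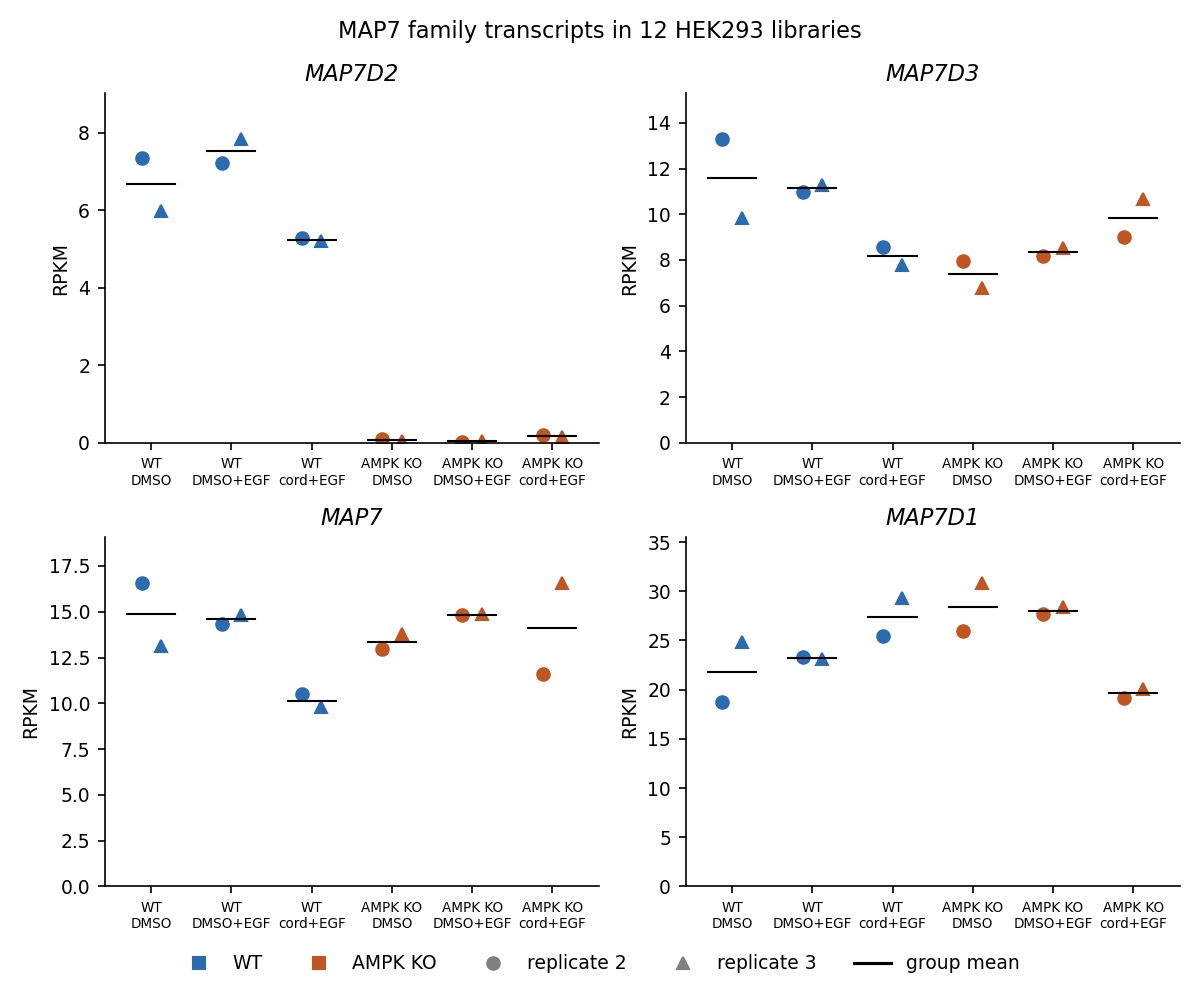
RPKM of the 4 MAP7 family members (y axes, each starting at 0) in the 6 groups (x axes), with WT in blue and AMPK KO in orange, circles for replicate 2, triangles for replicate 3 and a line at the group mean. MAP7D2 lay between 5.20 and 7.84 in WT and at or below 0.203 in AMPK KO, whereas the ranges of the other members in the 2 lines overlapped.

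MAP7D3, which like MAP7 binds microtubules and kinesin-1, had smaller differences between the lines. Its level in WT was 13.3 and 9.85 RPKM under DMSO, 10.98 and 11.3 under DMSO+EGF, and 8.58 and 7.80 under cordycepin+EGF. In AMPK KO it was 7.96 and 6.78, 8.18 and 8.52, and 8.99 and 10.7. The AMPK KO libraries were thus below the WT libraries under DMSO and DMSO+EGF and above them under cordycepin+EGF, and the lines overlapped over all treatments. The log2 difference AMPK KO minus WT was -0.63 ± 0.163 (SE, n = 2 per group, limma adjusted p = 0.101) under DMSO, -0.38 (adjusted p = 0.210) under DMSO+EGF and 0.27 (adjusted p = 0.481) under cordycepin+EGF. Averaged over the 3 treatments it was -0.25 ± 0.0938 (SE, limma adjusted p = 0.182). None of these passed the threshold of an adjusted p under 0.05. The size of the difference depended on the shallow library, WT DMSO replicate 3. Without it, which leaves that group with no replicate, the difference was -0.84 under DMSO and -0.32 over the 3 treatments.

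MAP7, or ensconsin, the founding member of the family, had no difference between the lines that passed the test. It was at 16.6 and 13.1 RPKM in WT and 12.98 and 13.8 in AMPK KO under DMSO, and at 14.4 and 14.8 against 14.8 and 14.9 under DMSO+EGF. Under cordycepin+EGF it was at 10.49 and 9.79 in WT and at 11.6 and 16.6 in AMPK KO, where the replicates were far apart. The lines overlapped under DMSO, while AMPK KO was above WT by a narrow margin under DMSO+EGF and by a wider one under cordycepin+EGF. Log2 differences were -0.16 (limma adjusted p = 0.600), 0.04 (adjusted p = 0.915) and 0.46 ± 0.167 (SE, adjusted p = 0.303) in the same order, and 0.11 with a 95% interval of -0.10 to 0.33 over the 3 treatments.

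MAP7D1, the most abundant member, was at 18.7 and 24.8 RPKM in WT and 26.0 and 30.9 in AMPK KO under DMSO. With EGF the values were 23.3 and 23.2 in WT and 27.6 and 28.4 in AMPK KO. Under cordycepin+EGF the order was turned, with 25.5 and 29.3 in WT and 19.2 and 20.1 in AMPK KO. The lines did not overlap within any treatment, but AMPK KO was the higher line in 2 treatments and the lower in the other. The log2 difference was 0.36 ± 0.141 (SE, limma adjusted p = 0.191) under DMSO, 0.28 (adjusted p = 0.275) under DMSO+EGF, -0.45 ± 0.141 (SE, adjusted p = 0.261) under cordycepin+EGF and 0.07 with a 95% interval of -0.12 to 0.25 over the 3 treatments. Without WT DMSO replicate 3, which leaves that group with no replicate, the DMSO difference was 0.56.

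Counting the members MAP7, MAP7D1 and MAP7D3 together, limma called 0 of 3 in each comparison of the lines. At an unadjusted p under 0.05 there were 2 of 3 under DMSO, 1 under DMSO+EGF, 2 under cordycepin+EGF and 1 over the 3 treatments. Of all 22067 genes tested, 0.44%, 1.74%, 0.118% and 4.34% were called in these comparisons, and 21.3%, 22.5%, 13.7% and 20.4% had an unadjusted p under 0.05. A fit to the recovered reads (limma voom) called MAP7D3 under DMSO (-0.70, adjusted p = 0.0270) and 0 of the 3 in the other comparisons of the lines, while of all genes it called 7.53% under DMSO, 11% under DMSO+EGF, 1.4% under cordycepin+EGF and 10.4% over the 3 treatments. Libraries did not overlap for 2 of the 3 under DMSO and for all 3 under DMSO+EGF and cordycepin+EGF, beside 48.5%, 62.8% and 45.6% of all genes tested. With 2 libraries against 2, an absence of overlap was thus common.

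The order of the levels was the same in all 12 libraries, with MAP7D1 highest, then MAP7, MAP7D3 and MAP7D2. Across the libraries of a line the ranges of neighbouring members overlapped in part. In WT, MAP7 at 9.79 to 16.6 RPKM overlapped MAP7D3 at 7.80 to 13.3, and MAP7D3 overlapped MAP7D2 at 5.20 to 7.84 only at its lowest library. In AMPK KO the 4 ranges were separate, with MAP7D1 at 19.2 to 30.9, MAP7 at 11.6 to 16.6, MAP7D3 at 6.78 to 10.7 and MAP7D2 at or below 0.203 RPKM.

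The summed RPKM of the family is a measure of the transcript pool shared by its members. In WT it was 54.9 ± 1.503 (SD, n = 2) under DMSO, 56.5 ± 0.845 under DMSO+EGF and 50.9 ± 1.57 under cordycepin+EGF. In AMPK KO it was 49.2 ± 3.17, 51.3 ± 0.852 and 43.7 ± 5.29. MAP7D2 made up 9.99% to 13.7% of this pool in WT (mean 11.9% ± 1.54, SD, n = 6) and 0.0327% to 0.508% in AMPK KO (mean 0.207%). The mean share of MAP7D1 was 44.9% in WT and 52.5% in AMPK KO, that of MAP7 24.2% and 29.4%, and that of MAP7D3 18.9% and 17.9%. Shares within a sum are not independent of each other, and because the fall of MAP7D2 was the basis of selection, no test was made on the pool.

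**Figure D2:**
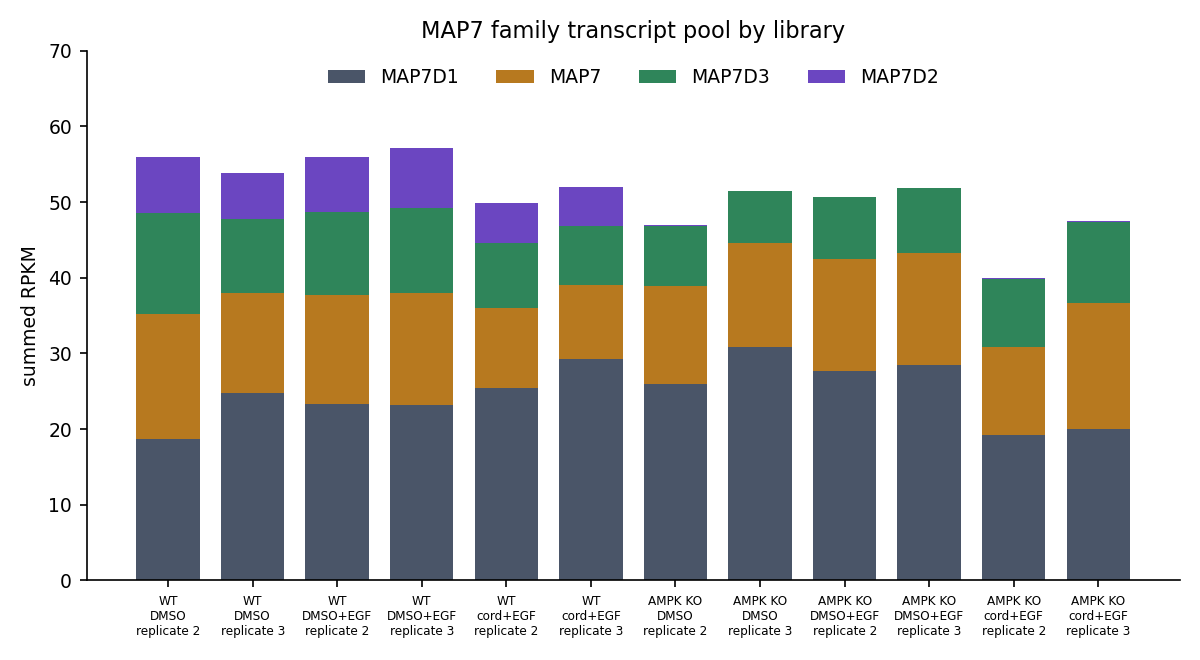
Summed RPKM of the 4 members (y axis, stacked from 0) in each of the 12 libraries (x axis), coloured by member. MAP7D2 took 9.99% to 13.7% of the pool in the WT libraries and is too small to be seen in the AMPK KO libraries.

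Treatment effects within a line were examined next. MAP7D2 was tested with the other members in WT, but not in AMPK KO or for the difference between the lines, because its AMPK KO values lie below the pseudocount and it was selected for them. EGF for 30 min was compared with DMSO alone. In WT the log2 change was 0.14 for MAP7D2, -0.07 for MAP7D3, -0.04 for MAP7 and 0.08 for MAP7D1, with limma adjusted p values from 0.783 to 0.940, and the libraries of the 2 groups overlapped for every member, whereas they did not for 36.5% of all genes. In AMPK KO it was 0.18 for MAP7D3, 0.16 for MAP7 and -0.0036 for MAP7D1, with no overlap of libraries for MAP7D3 and MAP7 and for 38.5% of all genes. Limma and voom called 0 of 4 members in WT and 0 of 3 in AMPK KO, and with limma 0 had an unadjusted p under 0.05. Of all genes tested limma called 0.0227% in WT and 0.0136% in AMPK KO, 9.72% and 2.42% had an unadjusted p under 0.05, and voom called 0.0318% and 0.0136%. The 95% intervals of the 4 log2 changes in WT lay within -0.43 and 0.53, which is the range of changes that these libraries allow.

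Cordycepin was compared with its solvent in EGF-stimulated cells. In WT, MAP7D2 went from 7.23 and 7.84 RPKM to 5.29 and 5.20, a log2 change of -0.44 ± 0.169 (SE, limma adjusted p = 0.282). The log2 change was -0.46 ± 0.167 for MAP7 (SE, limma adjusted p = 0.279), -0.38 ± 0.163 for MAP7D3 (SE, adjusted p = 0.303) and 0.27 ± 0.141 for MAP7D1 (SE, adjusted p = 0.363). For all 4 members the cordycepin libraries lay outside the range of the solvent libraries, lower for 3 members and higher for MAP7D1, a separation seen for 53.5% of all genes. Limma called 0 of 4, with 3 at an unadjusted p under 0.05, against 0.00453% and 16% of all genes, and voom also called 0 of 4, against 3.68% of all genes.

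In AMPK KO, MAP7D1 went from 27.6 and 28.4 RPKM to 19.2 and 20.1 under cordycepin, a log2 change of -0.46 ± 0.141 (SE, limma adjusted p = 0.122). The log2 difference was 0.26 for MAP7D3 (adjusted p = 0.370) and -0.05 for MAP7 (adjusted p = 0.896). The libraries did not overlap for MAP7D1 and MAP7D3 and overlapped for MAP7, beside an absence of overlap for 59.2% of all genes. Limma called 0 of 3 members, with 1 at an unadjusted p under 0.05, against 0.471% and 21.8% of all genes, and voom called 0 of 3, against 5.81% of all genes. MAP7D2, not tested here, had 25 reads with cordycepin and 4 without, summed over the libraries of each group, a rate ratio of 5.14. No interval is given, because the reads of a library are not replicates. Leaving out either WT DMSO library altered only the shared estimate of the spread, and the log2 change of MAP7D1 stayed at -0.46.

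Whether a treatment acted differently in the 2 lines was tested as an interaction, which uses the same libraries as the comparisons above. For cordycepin the interaction, AMPK KO minus WT, was -0.73 ± 0.199 for MAP7D1 (SE, limma adjusted p = 0.126), 0.64 ± 0.230 for MAP7D3 (SE, adjusted p = 0.169) and 0.41 ± 0.236 for MAP7 (SE, adjusted p = 0.338). The log2 change of MAP7D1 was positive in WT and negative in AMPK KO, and the interaction of MAP7 and MAP7D3 had the opposite sign, but limma called 0 of 3. Of the 3 members, 2 had an unadjusted p under 0.05, as did 21.4% of all genes, while 0% of all genes were called. With voom 1 of 3 was called, MAP7D1 (-0.74, adjusted p = 0.0358), against 9.13% of all genes. A fit restricted to the 4 groups involved called MAP7D1 (limma adjusted p = 0.0406), but it also called 1128 of all 22067 genes, where the main fit called 0. For EGF the interaction had adjusted p values from 0.769 to 0.930, and limma called 0 of 3 with 0 at an unadjusted p under 0.05, against 0% and 8.69% of all genes, while voom called 0 of 3 and 0% of all genes.

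**Figure D3:**
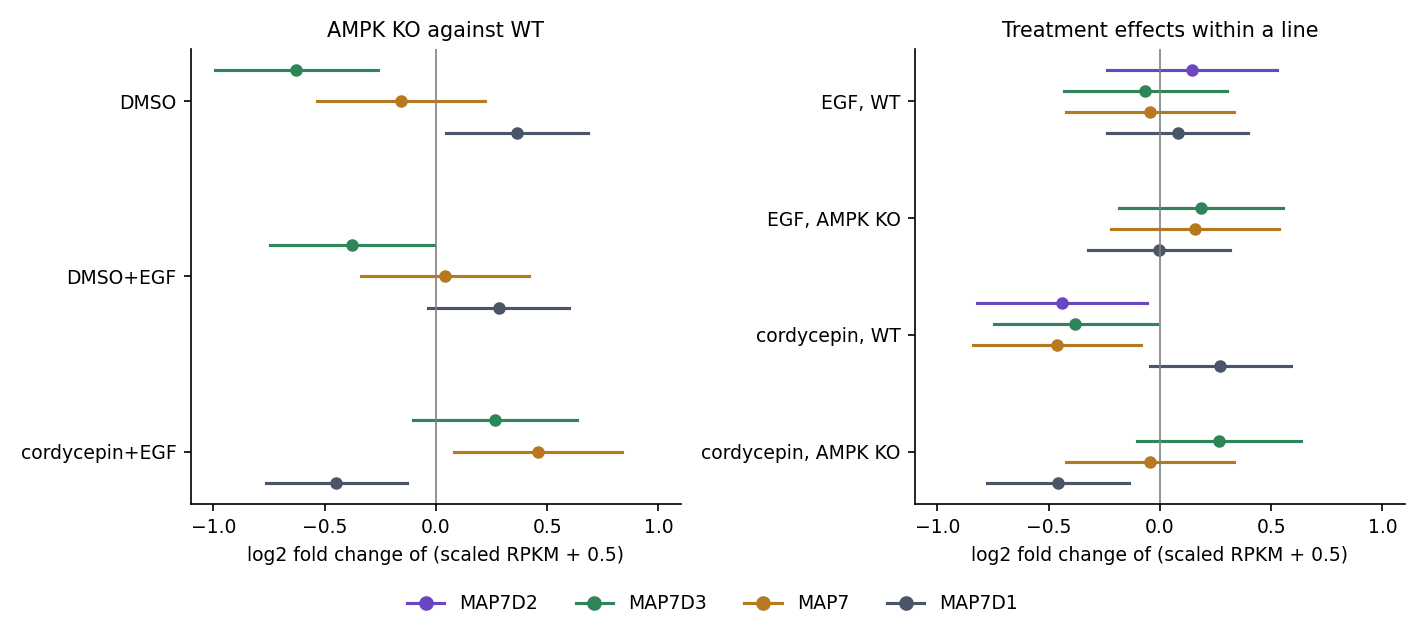
Log2 fold changes on the scaled RPKM + 0.5 scale (x axes) with 95% intervals from limma (bars), for the lines within each treatment (left, without MAP7D2, which was selected on this contrast) and for treatments within each line (right, with MAP7D2 in WT only). MAP7D1 had the opposite sign to MAP7D3 in the comparisons of the lines and in the cordycepin comparisons, and no value passed an adjusted p of 0.05.

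The genes around MAP7D2 on chromosome X were examined to see whether they also differed between the lines. Of the listed genes, 10 starting within 1 Mb of MAP7D2 were found, all 10 passed the filter, and limma called 0 of them over the 3 treatments, with 2 at an unadjusted p under 0.05 and a median log2 difference of -0.10, where 4.34% of all genes were called and 20.4% had an unadjusted p under 0.05. Voom called 1, ADGRG2 (-0.69, adjusted p = 0.0252), against 10.4% of all genes. Values on the limma scale ranged from -0.33 for ADGRG2, an adhesion G protein-coupled receptor, to 0.41 for a snoRNA gene. On the side of lower coordinates the nearest were BCLAF3 (0.15 ± 0.103 SE, limma adjusted p = 0.450), at 3.00 to 4.19 RPKM in WT and 2.95 to 4.76 in AMPK KO, and SH3KBP1, an endocytic adaptor (0.06, adjusted p = 0.835). On the other side the nearest starts were those of 2 snoRNA genes within the EIF1AX locus, at -0.16 (adjusted p = 0.699) and 0.41 (adjusted p = 0.289). EIF1AX, a translation initiation factor whose 3′ end lies closest to the MAP7D2 promoter, was at 38.9 to 57.95 RPKM in WT and 29.3 to 54.7 in AMPK KO (-0.15, limma adjusted p = 0.494). Of the 698 other genes tested on chromosome X, 9 were called higher and 17 lower in AMPK KO, with a median log2 difference of -0.04, beside 618 and 339 of all genes (2.8% and 1.54%) and a median of 0.00.

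**Figure D4:**
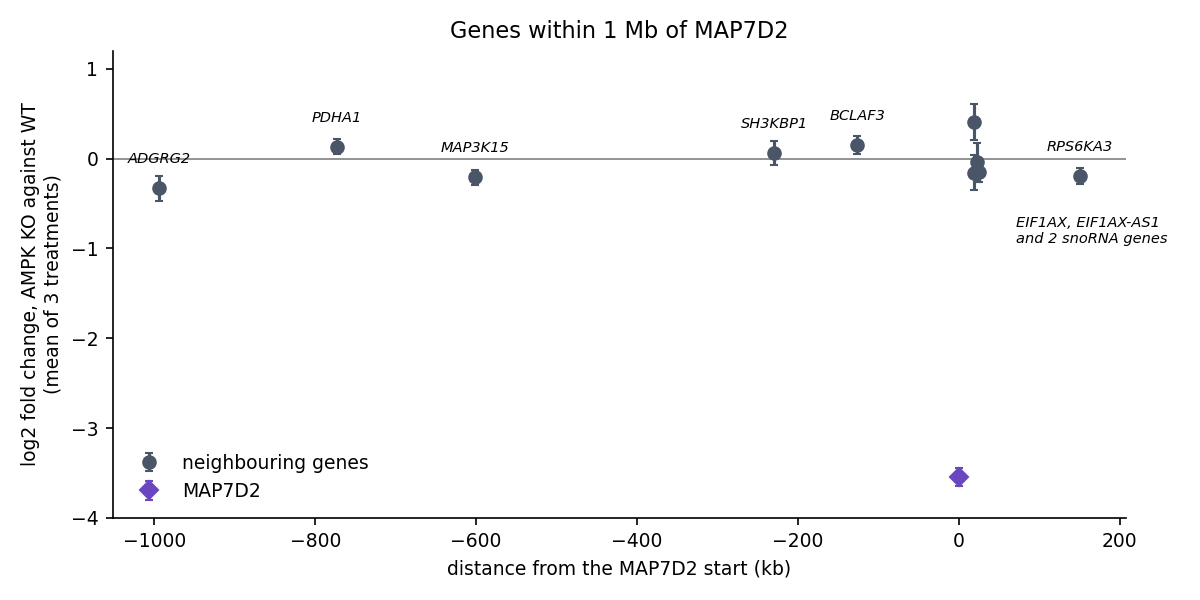
Log2 fold change in AMPK KO against WT over the 3 treatments (y axis, error bars SE) for MAP7D2 (diamond) and the 10 genes within 1 Mb (circles), by distance of their starts from that of MAP7D2 in kb (x axis). The neighbours lay between -0.33 and 0.41, and MAP7D2 was at -3.54. MAP7D2 was selected on this contrast, so its error bar is not a test.

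Next, the partners of the family were followed, beginning with kinesin-1. The list and those below are compared with all genes over the mean of the 3 treatments, in which 2.8% of genes were called higher and 1.54% lower with a median of 0.00. Limma and voom called 0 of 7 subunits, limma with 0 at an unadjusted p under 0.05 against 20.4% of all genes, and the median log2 difference was 0.03. KIF5B, the ubiquitous heavy chain, was the highest at 43.5 to 58.2 RPKM in WT (median 51.7) and 39.0 to 60.6 in AMPK KO (median 49.9). KIF5A and KIF5C, the heavy chains enriched in neurons, were low in both lines, with medians of 1.96 and 4.02 RPKM in WT and 1.83 and 3.87 in AMPK KO. The most abundant light chain was KLC2, with medians of 13.5 and 13.6 RPKM.

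Of 12 kinesin-1 cargo adapters, 0 were called higher and 1 lower in AMPK KO, with a median of 0.15. CLSTN1, calsyntenin 1, which links vesicles to kinesin light chains, had medians of 34.2 RPKM in WT and 23.8 in AMPK KO and fell by 0.39 on the log2 scale (SE 0.0913, limma adjusted p = 0.0497). With DMSO+EGF alone its difference was -0.86 (limma adjusted p = 0.0416). It was -0.40 under DMSO (limma adjusted p = 0.195) and 0.10 under cordycepin+EGF (limma adjusted p = 0.798), so the fall was not seen in every treatment. The ranges of the lines overlapped.

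Among the tubulins, 13 of the 14 listed were present in the table and tested, 1 was called higher and 0 lower, with a median of -0.0040. This was TUBB6, a β-tubulin isotype, with medians of 11.9 RPKM in WT and 16.1 in AMPK KO and a log2 difference of 0.43 (limma adjusted p = 0.0373). Of 15 other lattice-binding microtubule-associated proteins 2 were called higher and 0 lower, with a median of 0.09. MAP4, a widely expressed microtubule stabilizer, had medians of 13.5 and 17.5 RPKM (0.35, limma adjusted p = 0.0376). MAP1A, best known from neurons, was at 1.30 to 1.79 RPKM in WT and 2.20 to 3.20 in AMPK KO without overlap (0.51, limma adjusted p = 0.0253). Its difference was 0.40 under DMSO, 0.30 under DMSO+EGF and 0.83 under cordycepin+EGF. Limma called none of TUBB6, MAP4 and MAP1A within a single treatment.

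End-binding proteins gave 1 of 14 called higher and 0 lower, with a median of 0.06. CLASP2, which stabilizes growing ends, had medians of 8.09 RPKM in WT and 11.2 in AMPK KO (0.36, limma adjusted p = 0.0413). Of 11 severing and destabilizing proteins 2 were called higher and 0 lower, with a median of -0.01. KATNA1, the catalytic subunit of the severing enzyme katanin, had medians of 15.7 and 25.1 RPKM (0.53, limma adjusted p = 0.0235), and with DMSO+EGF alone its difference was 0.89 (adjusted p = 0.0492). KATNAL2, a katanin-like protein, was at 0.773 to 1.204 RPKM in WT and 1.42 to 2.68 in AMPK KO (0.63, limma adjusted p = 0.0241). Like MAP1A it was among the 1.62% of genes whose 6 AMPK KO libraries all lay above the 6 WT libraries, a separation seen in either direction for 2.68%. Within a single treatment limma called neither KATNAL2 nor CLASP2. With the treatments, limma called 0 of the 72 tested genes of these lists in either line, with 7 (EGF in WT), 1 (EGF in AMPK KO), 16 (cordycepin in WT) and 18 (cordycepin in AMPK KO) at an unadjusted p under 0.05, against 9.72%, 2.42%, 16% and 21.8% of all genes. Voom called 0, 0, 2 and 7 of the 72, against 0.0318%, 0.0136%, 3.68% and 5.81% of all genes.

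The 7 limma calls between the lines, of 72 genes, were close to the threshold. Voom called 13 of the 72, namely 3 adapters, 2 tubulins, 4 lattice-binding, 2 end-binding and 2 severing proteins, where it called 10.4% of all genes and limma 4.34%. With 1 library left out, between 0 and 7 of the limma calls passed: 0 without AMPK KO DMSO replicate 3, either AMPK KO DMSO+EGF library or WT DMSO+EGF replicate 2, and 7 without WT DMSO replicate 3. All 7 passed with voom, and 5 with the replicate number as a block. Under DMSO+EGF, the differences of CLSTN1, KATNA1 and COL1A1 passed in 9, 7 and 6 of 19 other settings.

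**Figure D5:**
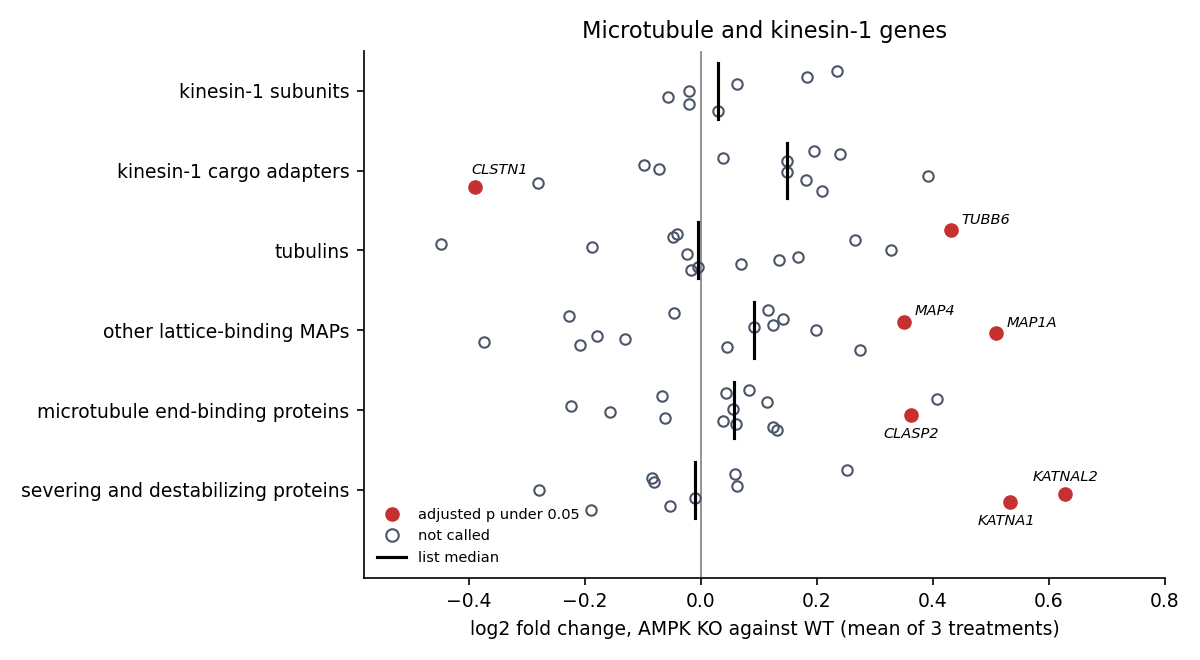
Log2 fold change in AMPK KO against WT over the 3 treatments (x axis) for each tested gene of 6 lists (y axis), filled where the limma adjusted p was under 0.05, with a line at the list median. Of the genes shown, 7 passed, 1 of them lower and 6 higher in AMPK KO, and the medians lay between -0.01 and 0.15.

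The genes whose pattern over the 12 libraries was most like that of each member were identified by Pearson r among 18784 genes with a mean of at least 1 RPKM. The points share libraries, depth and line, so r is a description. It was taken on log2(scaled RPKM + 0.5), where the AMPK KO values of MAP7D2 lie below the pseudocount, and MAP7D2 was selected for its difference between the lines. For MAP7D2 the 5 closest were CEBPE (r = 0.997), CIROP (0.989), TENM1 (0.985), RIBC2 (0.979) and TENM3 (0.974). Of these, CEBPE and CIROP are on chromosome 14, TENM1 on chromosome X, RIBC2 on chromosome 22 and TENM3 on chromosome 4. CEBPE, a myeloid transcription factor, was at 76.2 to 113.6 RPKM in WT and at no more than 0.0387 in AMPK KO. TENM1, a teneurin cell adhesion protein, was at 4.42 to 6.99 and 0.0624 to 0.139 RPKM, whereas TENM3 was at 12.2 to 15.6 and 7.08 to 8.56. The patterns of the other members did not separate the lines. The closest were DOCK11 (0.956), TBL1X (0.949) and MAGI1 (0.946) for MAP7, VPS18 (0.985), PITHD1 (0.969) and FKBPL (0.961) for MAP7D1, and LRRC8C (0.978), ENTPD7 (0.976) and WDR36 (0.9748) for MAP7D3.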

How the data were processed

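RNA from 12 HEK293 libraries, 2 for each of 6 groups assigned from the sample labels, was analysed. Ribosomal RNA-depleted, stranded libraries were sequenced as pairs of 150 bases, mapped to GRCh38.p13 and counted per Ensembl gene with rsubread by the authors, who deposited RPKM values. In the table, 2 rows that name no gene were left out, 0 columns belonged to other samples, and 26029 of 26058 identifiers matched GENCODE release 44. RPKM was divided by the upper quartile of each library, and log2(scaled RPKM + 0.5) of the 22067 genes with a mean of at least 0.5 RPKM was fitted by group with limma 3.58.1 in R 4.3.3 (trended empirical Bayes, two-sided, Benjamini-Hochberg over all genes tested, threshold 0.05). All 12 libraries shared the estimate of the spread, with 6 residual degrees of freedom. Whole reads, within a tolerance of 0.05 read, were recovered for 96.24% of genes in every library. For limma voom, the values of 22044 tested genes were rounded to whole reads, and this tolerance was not applied as a filter. Library sizes were taken from the RPKM denominators instead of the planned TMM scaling. The read ratios of MAP7D2 also use the rounded reads and are given without an interval. Intervals of log2 changes used t quantiles from scipy 1.17.1. The study calls the replicates biological, and how their cultures were kept apart is not given in the sources used here, so p values measure the spread between these samples, which may be technical in part. Tests of MAP7D2 in AMPK KO and of its interactions were planned but are not reported, because its values there lie below the pseudocount. Alternatives were 2 other pseudocounts, no filter, RPKM as deposited, only the groups compared, a replicate block, voom and leaving out each library.

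The members and the gene lists were chosen with earlier results of these data known. From the gene lists, 1 gene is not reported here. The genes named were the members, PRKAA1 and PRKAA2, up to 3 genes per list with the largest change among those called over the 3 treatments and any list gene called in another comparison, the nearest neighbours of MAP7D2 and the genes most like each member. Further genes are named for their level or position, KIF5A, KIF5B, KIF5C and KLC2 among the kinesin-1 subunits, and EIF1AX, ADGRG2 and the overlapping genes, which were chosen after their values were seen. PAX2, LHX1, NEFM and VIM, from the genes known in HEK293 cells, were also named for their level after their values were seen.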

Additional observations from a re-analysis of the deposited data

How the results depend on the processing

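The limits are those of 2 libraries per group, of 1 shallow library (WT DMSO replicate 3) and of a residual spread shared by all groups. The replicates of WT DMSO were also the least alike, with a Pearson r of 0.918 over the genes tested, against 0.961 to 0.977 in the other groups. The number of members called, 0 in every comparison, was different under few alternatives. Under DMSO the lines gave 1 with voom and 0 to 2 with 1 library left out, the 2 being reached without WT DMSO replicate 3. Over the 3 treatments they gave 0 to 1, with 1 without the same library. The cordycepin interaction gave 2 with voom (MAP7D1, and MAP7D2 from a test that is not used), 1 with only the compared groups and 0 to 1 with 1 library left out, with 1 without WT DMSO replicate 2 or 3. Cordycepin in AMPK KO gave 0 to 1, again with 1 without WT DMSO replicate 2 or 3. The cause was not tested.

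Signs turned in uncalled log2 changes when 1 library was left out. The ranges were -0.33 to 0.0088 for MAP7 between lines under DMSO, -0.21 to 0.12 for MAP7 with EGF in WT, -0.29 to 0.19 for MAP7 with cordycepin in AMPK KO, -0.11 to 0.11 for MAP7D1 with EGF in AMPK KO, -0.12 to 0.27 for MAP7D1 with EGF in WT, -0.28 to 0.11 for the EGF interaction of MAP7D1, -0.0016 to 0.29 for MAP7D2 with EGF in WT, and -0.28 to 0.15 for MAP7D3 with EGF in WT.

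The MAP7D2 difference over the 3 treatments, -3.54, was -5.14 with a pseudocount of 0.1, -2.76 with 1 and -6.34 with voom. Its share of the family in WT was 9.44% by reads.

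Deviations of same-numbered samples correlated at 0.136 to 0.314 in the 3 pairs of WT groups but at -0.122 to 0.0307 in the 3 pairs of AMPK KO groups, and since not every pair of groups exceeded 0.1 the numbers were not taken as a pairing. With the replicate block 0 members were called in every comparison. Over all genes the block moved the calls from 97 to 117 under DMSO and from 957 to 913 over the 3 treatments.

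Counts over all genes depended more on the processing. Between lines, voom called 1661 genes against 97 under DMSO, 2434 against 383 under DMSO+EGF, 308 against 26 under cordycepin+EGF and 2283 against 957 over the 3 treatments. For cordycepin it called 811 against 1 in WT, 1281 against 104 in AMPK KO and 2013 against 0 for the interaction. Only the compared groups gave 1, 2215 and 2 between lines, 1 and 1 for EGF against 5 and 3, 0 and 0 for cordycepin, and 1128 for the interaction. Without a filter 188 genes were called under DMSO and 234 with cordycepin in AMPK KO, where a pseudocount of 0.1 gave 50. For cordycepin in WT a pseudocount of 0.1 and the block gave 0 and a pseudocount of 1 gave 2. Leaving out 1 library gave 5 to 3065 genes between lines under DMSO, the latter without WT DMSO replicate 3, 6 to 2369 under DMSO+EGF, 4 to 76 under cordycepin+EGF and 305 to 2890 over the 3 treatments. It gave 3 to 702 for EGF in WT, 1 to 4 in AMPK KO and 0 to 13 for its interaction, and 0 to 7 for cordycepin in WT, 0 to 1360 in AMPK KO and 0 to 2006 for its interaction.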
